A study of Mus musculus with 10 samples.

Results

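Rida, Bdh2, Cmbl, Stard6, Cdkl3, Tfcp2l1, Serpinb9 and Gm10754 are 8 genes that lie outside the duplicated part of mouse chromosome 16 (Mmu16) and had higher levels in the hippocampus of Dp1Yey mice than in that of their control littermates. They were picked by name from the called genes with the higher level in this comparison, so the difference between the groups selected them and is given here as a description, with no weight as evidence. The limma p-values printed beside each of the 8 are likewise the values that chose them. Every probe set annotated to exactly 1 of the 8 symbols was taken, which gave 9 probe sets out of the 35556 on the array and 8 of the 19938 genes measured. Stard6 had 2 probe sets and each of the other genes had 1.

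Dp1Yey mice carry a segmental duplication of Mmu16 from Lipi to Zbtb21 (mm10, chr16:75540514-97962627), so the genes inside it are present in 3 copies, and they model the part of human chromosome 21 that is homologous to Mmu16. The 10 arrays came from 5 Dp1Yey males and 5 control male littermates, all 16 weeks old, with total RNA of the whole left and right hippocampus of 1 mouse on each Affymetrix Mouse Gene 1.0 ST array. The labels place all mice on C57BL/6N and the study's text on C57BL/6J, and this was not settled. Nothing states that the replicate numbers mark shared litters or days. The values are log2 values from robust multi-array average (RMA), so a difference of 1 is a doubling, and they compare a gene between mice but not 1 gene with another.

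The genes have unrelated roles as far as these are known. Rida (formerly Hrsp12), Bdh2 and Cmbl encode soluble metabolic enzymes: an imine deaminase that clears reactive by-products of pyridoxal phosphate enzymes, a short-chain dehydrogenase of hydroxybutyrate that has also been tied to a mammalian iron-binding siderophore, and a hydrolase known for the activation of ester prodrugs. Stard6 is a lipid-transfer protein with a START domain, best known from male germ cells, and Serpinb9 is an intracellular inhibitor of granzyme B. Cdkl3 is a kinase related to the cyclin-dependent kinases, Tfcp2l1 is a CP2-family transcription factor known from naive pluripotent cells and the kidney collecting duct, and Gm10754 is annotated as a long non-coding RNA with no known role.

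Upstream windows of 250 bases before to 50 bases after a start site were taken from the RefSeq promoter table (GRCm38.p6, the mm10 assembly) for 5 of the 8 genes. None was found for Rida and Cdkl3, and Stard6 was left out and not searched. The windows were searched on both strands for an interferon regulatory factor (IRF) element, GAAANNGAA, a Runx element, TGTGGT, an Ets and Gabpa element, CCGGAAGT, a Bach1 and AP-1 element, TGAGTCA, and a CREB element, TGACGTCA. Gabpa, Runx1 and Bach1 are factors encoded in the duplicated interval. The 4 windows below belong to the genes with a match (Serpinb9 and Cmbl) and to a pair whose levels moved together over arrays (Tfcp2l1 and Bdh2), and capitals mark the matched letters.
Serpinb9 chr13:33004291-33004590, plus strand: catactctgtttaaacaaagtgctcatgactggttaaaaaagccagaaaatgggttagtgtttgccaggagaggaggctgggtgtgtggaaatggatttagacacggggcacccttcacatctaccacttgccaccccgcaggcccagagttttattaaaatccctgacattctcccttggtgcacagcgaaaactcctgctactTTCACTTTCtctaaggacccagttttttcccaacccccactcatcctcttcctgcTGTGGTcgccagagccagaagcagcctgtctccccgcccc
Cmbl chr15:31568583-31568882, plus strand: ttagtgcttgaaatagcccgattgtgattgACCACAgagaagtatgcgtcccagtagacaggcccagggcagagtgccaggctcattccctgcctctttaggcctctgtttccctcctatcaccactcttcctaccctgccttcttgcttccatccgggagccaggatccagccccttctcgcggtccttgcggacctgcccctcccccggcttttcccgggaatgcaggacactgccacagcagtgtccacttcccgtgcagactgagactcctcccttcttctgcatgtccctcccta
Tfcp2l1 chr1:118627695-118627994, plus strand: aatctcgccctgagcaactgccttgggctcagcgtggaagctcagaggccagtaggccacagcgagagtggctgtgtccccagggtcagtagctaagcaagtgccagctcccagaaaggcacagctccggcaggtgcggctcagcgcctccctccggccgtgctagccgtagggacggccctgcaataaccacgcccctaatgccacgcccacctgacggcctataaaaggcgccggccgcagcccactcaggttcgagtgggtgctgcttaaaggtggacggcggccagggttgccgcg
Bdh2 chr3:135280971-135281270, plus strand: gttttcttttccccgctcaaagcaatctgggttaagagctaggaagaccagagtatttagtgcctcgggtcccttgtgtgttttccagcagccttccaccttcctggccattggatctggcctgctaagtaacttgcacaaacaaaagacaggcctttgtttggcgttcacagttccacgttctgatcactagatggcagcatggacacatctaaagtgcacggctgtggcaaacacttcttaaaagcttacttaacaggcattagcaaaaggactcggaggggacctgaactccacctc

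In Serpinb9 the reverse complement of the IRF element, TTCACTTTC, began at position -45 from the start site, and a Runx element, TGTGGT, began at position 11. An IRF element was present in 8.56% and a Runx element in 16.8% of all 32851 windows of the same length. The Cmbl window held the reverse complement of the Runx element, ACCACA, at position -220. For both genes the start site of the table lies inside the annotated gene. No Ets and Gabpa element (3.89% of all windows), Bach1 and AP-1 element (5.2%) or CREB element (1.79%) was found in the 5 windows, and the Tfcp2l1, Bdh2 and Gm10754 windows held none of the 5 elements. The windows shared little in base composition. Tfcp2l1 had 65.3% G or C and 21 CpG sites, Gm10754 had 40.3% and 1 CpG site, and the median window had 52.7% and 7. A match of letters is a description and not a binding site.

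The comparison asked how the level of each gene differed between Dp1Yey and control mice. Among the 19795 measured genes outside the interval, 78 (0.394%) were called higher in Dp1Yey by limma at an adjusted p under 0.05 and 99 (0.5%) were called in either direction. All 8 genes were among the 78, as the choice required, with 1.28-fold to 1.58-fold higher levels against a median of 1.24-fold over the 78. In all 8 the lowest Dp1Yey array lay above the highest control array, which was the case for 413 genes outside the interval (2.09%), and this too follows from the choice. By p the 8 genes held ranks 3, 4, 6, 9, 10, 11, 23 and 38 among the 78. The 2 genes of smallest p, Elovl2 (0.30 on the log2 scale, limma adjusted p = 0.000995) and Lcat (0.56, limma adjusted p = 0.00112), are not among the 8, so the 8 are not simply the top of the ranking. All 8 had a mean above the background floor of 5.45, set so that 90% of 1015 olfactory receptor genes had a lower mean. In whole tissue, more cells of a type and more RNA per cell cannot be told apart.

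**Figure D1:**
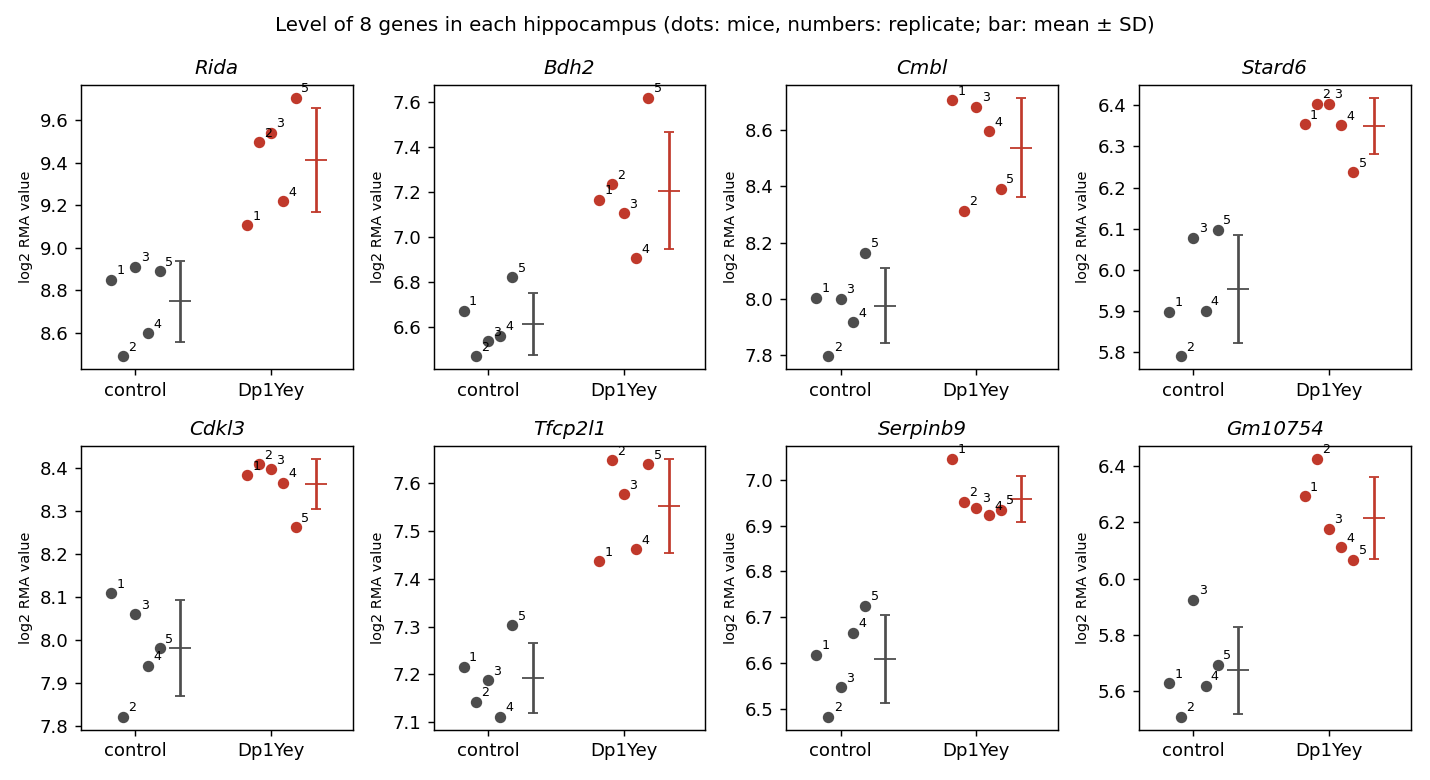
Log2 RMA values of the 8 genes in each of 5 control and 5 Dp1Yey hippocampi, with 1 dot per mouse labelled by replicate number and bars for the mean ± SD (n = 5 per group); each panel has its own vertical axis. In every panel the Dp1Yey dots lie above the control dots, and control replicate 2 is the lowest dot in 7 of 8 panels.

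Rida, the imine deaminase on chromosome 15 (mm10, chr15:34484022-34495246), had control values of 8.85, 8.49, 8.91, 8.60 and 8.89 in replicates 1 to 5 and Dp1Yey values of 9.11, 9.49, 9.54, 9.22 and 9.70. Control replicates 2 and 4 were the low ones and Dp1Yey replicate 1 came closest to the controls, with a gap of 0.20 between the groups. Its mean moved from 8.75 ± 0.19 to 9.41 ± 0.24 (SD, n = 5 each), a log2 difference of 0.66 with a 95% confidence interval (CI) of 0.41 to 0.91 and a fold of 1.58 (limma adjusted p = 0.0223). This was the highest fold of the 8 genes and also the widest interval.

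Bdh2, the cytosolic dehydrogenase (chr3:135281221-135304426), had control values of 6.67, 6.47, 6.54, 6.56 and 6.82 and Dp1Yey values of 7.17, 7.24, 7.11, 6.91 and 7.62. The groups were separated by only 0.08, between control replicate 5 and Dp1Yey replicate 4, and Dp1Yey replicate 5 stood above its group. The log2 difference was 0.59 (95% CI 0.35 to 0.83), 1.51-fold, between means of 6.61 ± 0.14 and 7.21 ± 0.26 (SD, n = 5 each; limma adjusted p = 0.0310). Bdh2 had the narrowest gap and the largest adjusted p of the 8 genes.

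Cmbl, the hydrolase (chr15:31565342-31590119), had control values of 8.005, 7.80, 8.001, 7.92 and 8.16 and Dp1Yey values of 8.71, 8.31, 8.68, 8.60 and 8.39. Dp1Yey replicates 2 and 5 were the low ones of their group, and both stayed above control replicate 5. The means were 7.98 ± 0.13 and 8.54 ± 0.18 (SD, n = 5 each), with a log2 difference of 0.56 (95% CI 0.38 to 0.74) and a fold of 1.48 (limma adjusted p = 0.00817). Rida and Cmbl lie on the same chromosome, each outside the other's window of 1 Mb.

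Stard6, the lipid-transfer protein (chr18:70472454-70505254), was measured by 2 probe sets. The brighter one gave 5.90, 5.79, 6.08, 5.90 and 6.10 in control and 6.35, 6.40, 6.40, 6.35 and 6.24 in Dp1Yey mice. The other gave 5.81, 5.73, 6.01, 5.81 and 6.04 in control and 6.29, 6.30, 6.32, 6.30 and 6.31 in Dp1Yey mice. In both, control replicates 3 and 5 were the high controls and the groups did not overlap, and in the dimmer one the 5 Dp1Yey mice were almost equal, with an SD of 0.011. The log2 differences were 0.40 (95% CI 0.27 to 0.53; limma adjusted p = 0.00817) and 0.42 (95% CI 0.30 to 0.55; adjusted over all single-symbol probe sets, limma adjusted p = 0.00266). Their deviations from the group means correlated with a Pearson r of 0.89 over 10 arrays.

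The number of the brighter Stard6 probe set lies among those of chromosome 10, with 9 of its 10 nearest numbers annotated there, whereas 10 of the 10 nearest numbers of the dimmer one are on chromosome 18. Which transcript the brighter one measures was not tested. The probe sets of the other 7 genes all sat among numbers of their own chromosome.

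Cdkl3, the cyclin-dependent kinase-like kinase (chr11:52000842-52089778), had control values of 8.11, 7.82, 8.06, 7.94 and 7.98 and Dp1Yey values of 8.38, 8.41, 8.40, 8.36 and 8.26. The Dp1Yey mice were close together and control replicate 2 was the low control. The means of 7.98 ± 0.11 and 8.36 ± 0.059 (SD, n = 5 each) differed by 0.38 on the log2 scale (95% CI 0.27 to 0.49), 1.30-fold (limma adjusted p = 0.00426).

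Tfcp2l1, the CP2-family transcription factor (chr1:118627923-118685168), had control values of 7.22, 7.14, 7.19, 7.11 and 7.30 and Dp1Yey values of 7.44, 7.65, 7.58, 7.46 and 7.64. Dp1Yey replicates 1 and 4 were the low ones, as they were for Rida, and the gap to control replicate 5 was 0.13. The log2 difference was 0.36 (95% CI 0.25 to 0.47), 1.28-fold, between means of 7.19 ± 0.074 and 7.55 ± 0.099 (SD, n = 5 each; limma adjusted p = 0.00606).

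Serpinb9, the granzyme B inhibitor (chr13:32997061-33017955), had control values of 6.62, 6.48, 6.55, 6.67 and 6.73 and Dp1Yey values of 7.05, 6.95, 6.94, 6.92 and 6.93. Dp1Yey replicate 1 stood above 4 nearly equal mice, and the groups were 0.20 apart. The means of 6.61 ± 0.096 and 6.96 ± 0.050 (SD, n = 5 each) differed by 0.35 on the log2 scale (95% CI 0.25 to 0.45), 1.28-fold, and the limma adjusted p of 0.00329 was the smallest of the 8 genes.

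Gm10754, the long non-coding RNA (chr10:97681414-97967090), had control values of 5.63, 5.51, 5.92, 5.62 and 5.69 and Dp1Yey values of 6.29, 6.43, 6.18, 6.11 and 6.07. Control replicate 3 was the high control and lay 0.14 under the lowest Dp1Yey mouse. The means of 5.67 ± 0.15 and 6.21 ± 0.15 (SD, n = 5 each) differed by 0.54 on the log2 scale (95% CI 0.36 to 0.72), 1.45-fold (limma adjusted p = 0.00817). Its mean over the 10 arrays was the nearest to the background floor, 0.49 above it, followed by Stard6 at 0.70 above it. These means include the higher Dp1Yey values. The control mean of Gm10754, 5.67, and its control replicate 2, 5.51, lay nearer to the floor of 5.45.

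Leaving out each array in turn kept the call of Cmbl, Stard6, Cdkl3, Tfcp2l1, Serpinb9 and Gm10754 in all 10 fits. For Stard6 these fits used the brighter probe set, and the dimmer one was not put through them on its own. Rida kept its call in 7 of 10 and lost it when Dp1Yey replicate 2 or 3 or control replicate 4 was removed (limma adjusted p up to 0.0728), with log2 differences from 0.59 to 0.74. Bdh2 kept its call in 5 of 10 and lost it without Dp1Yey replicate 1, 2 or 3 or control replicate 2 or 4 (limma adjusted p up to 0.0804), with differences from 0.49 to 0.67. Without Dp1Yey replicate 5, the high mouse of both genes, the difference was 0.59 for Rida and 0.49 for Bdh2, and both calls stayed. Over 160 combinations of gene and alternative, the log2 difference ran from 0.25 to 0.74 and never changed sign, and 18 of the 160 no longer passed the threshold. As the groups did not overlap for any of the genes, leaving out arrays could not change the sign, so the sign carries no weight there.

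**Figure D2:**
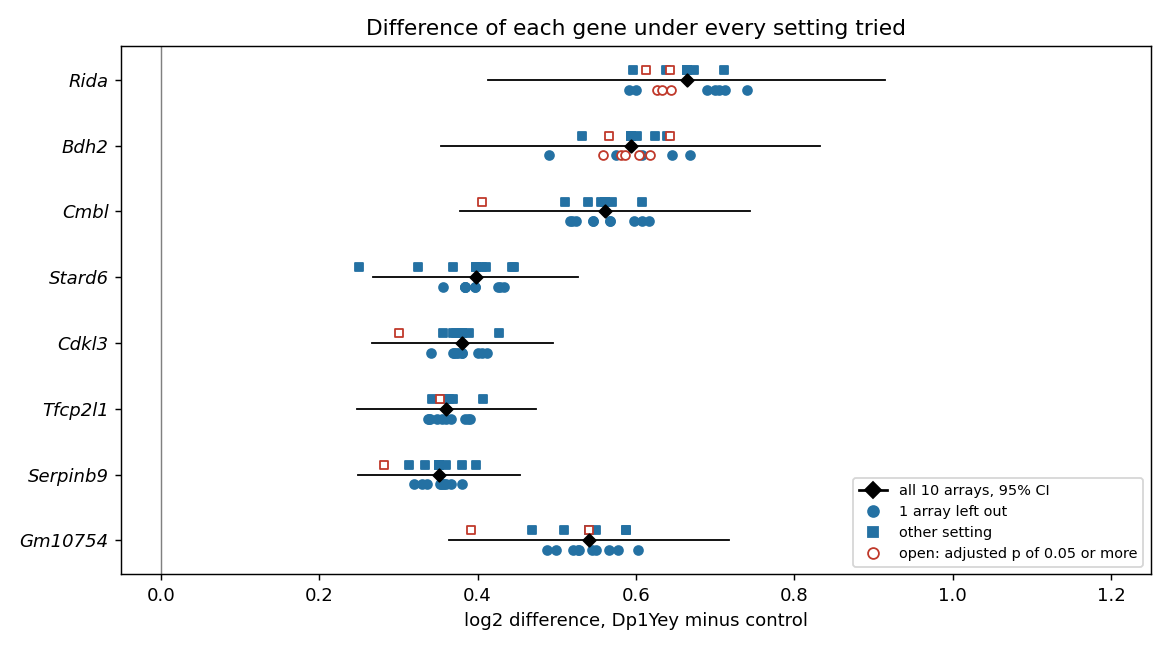
Log2 difference, Dp1Yey minus control, of the 8 genes (horizontal axis) with all 10 arrays (diamonds, 95% CI), with 1 array left out (circles) and under the other settings (squares); open symbols have a limma adjusted p of 0.05 or more. All symbols lie right of 0, which for the circles follows from the lack of overlap between the groups. The open circles belong to Bdh2 and Rida.

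The spread of values within an array moved with some of these genes. Control replicates 1 and 2 had the lowest interquartile ranges of all 10 arrays, 3.44 and 3.40 log2 units, and the other controls had 3.46 to 3.51. Dp1Yey replicates 1 to 4 had 3.52 to 3.53, above every control, and Dp1Yey replicate 5 had 3.47, so the range itself differed between the groups and a fit with it as a covariate cannot fully tell array range and genotype apart. Deviations from the group means correlated with this range over 10 arrays at r = 0.94 for Stard6, 0.66 for Cmbl and Gm10754, 0.60 for Serpinb9 and 0.59 for Cdkl3. It was 0.06 for Rida and Tfcp2l1 and -0.16 for Bdh2. With the range as a covariate only Stard6, read from its brighter probe set, kept its call. Its log2 difference was 0.25 in place of 0.40 (limma adjusted p = 0.0340), and its dimmer probe set was not fitted this way. The differences of Cmbl (0.41), Gm10754 (0.39), Cdkl3 (0.30) and Serpinb9 (0.28) were also smaller, and those of Rida and Bdh2 (both 0.64) and Tfcp2l1 (0.35) were near their first values. Of all genes outside the interval, 11 were called in that fit. Without control replicates 1 and 2, Rida (limma adjusted p = 0.0674) and Bdh2 (0.100) were no longer called and the other 6 genes were. The part that this spread has in the results was not tested.

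Deviations from the group means give co-variation that the choice of the genes did not fix, and it is described here over the 10 arrays, which share a normalisation. The mean Pearson r of the 28 pairs was 0.29, with 22 pairs above 0 and 8 above 0.5. Taken within a group it was 0.62 over the 5 control mice and 0.0063 over the 5 Dp1Yey mice, so the pooled value came mostly from the controls, and 5 points carry little weight. Rida, Bdh2 and Tfcp2l1 went together, with r = 0.86 for Rida and Tfcp2l1, 0.71 for Bdh2 and Tfcp2l1 and 0.68 for Rida and Bdh2. Stard6, Cdkl3 and Gm10754 made another set, with r = 0.74 for Stard6 and Gm10754 and 0.63 for both other pairs. Stard6 stands here for its brighter probe set, whose number lies among those of chromosome 10. Co-variation of its dimmer probe set with the other genes was not computed. Cmbl went with Serpinb9 (0.57) and Stard6 (0.56), and its lowest r was with Tfcp2l1 (-0.19). The latter pooled a pair that went together in the 5 controls (0.88) and oppositely in the 5 Dp1Yey mice (-0.79), and Cmbl and Stard6 had 0.86 and 0.27 in these groups. The 6 pairs inside the sets of Rida, Bdh2 and Tfcp2l1 and of Stard6, Cdkl3 and Gm10754 had r from 0.53 to 0.98 within either group. The sets were named from the highest pooled r, so this follows in part from that choice. In the controls pairs outside the sets were as high, with 0.91 for Bdh2 and Cmbl, 0.86 for Rida and Cdkl3 and 0.85 for Rida and Stard6. In the Dp1Yey mice these had -0.57, -0.49 and -0.34.

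These sets could be seen in single mice. Dp1Yey replicate 5 was the highest Dp1Yey mouse for Rida and Bdh2 and the lowest for the brighter Stard6 probe set, Cdkl3 and Gm10754. In the dimmer Stard6 probe set Dp1Yey replicate 1 (6.29) was the lowest and replicate 5 (6.31) was not, with all Dp1Yey mice nearly equal. Control replicate 2 was the lowest control for 7 of the 8 genes, all but Tfcp2l1, and control replicate 5 the highest for 5 of them. Without control replicate 2 the mean r of the 28 pairs was 0.083 in place of 0.29, and without control replicate 1 it was 0.31; without both it was 0.11. In the 8 arrays left, Rida and Tfcp2l1 had r = 0.88, Bdh2 and Tfcp2l1 0.70 and Rida and Bdh2 0.65. The second set had 0.84 for Stard6 and Cdkl3, 0.82 for Cdkl3 and Gm10754 and 0.63 for Stard6 and Gm10754. With the array range taken out, Rida and Tfcp2l1, Bdh2 and Tfcp2l1 and Rida and Bdh2 had r = 0.86, 0.73 and 0.70. In the second set Stard6 and Cdkl3 went from 0.63 to 0.25, Cdkl3 and Gm10754 to 0.39 and Stard6 and Gm10754 from 0.74 to 0.46. Cmbl and Stard6 went from 0.56 to -0.23. Stard6 rose with Rida from 0.34 to 0.80 and with Tfcp2l1 from 0.31 to 0.73, above every pair inside the second set. The second set was thus not kept in this form.

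**Figure D3:**
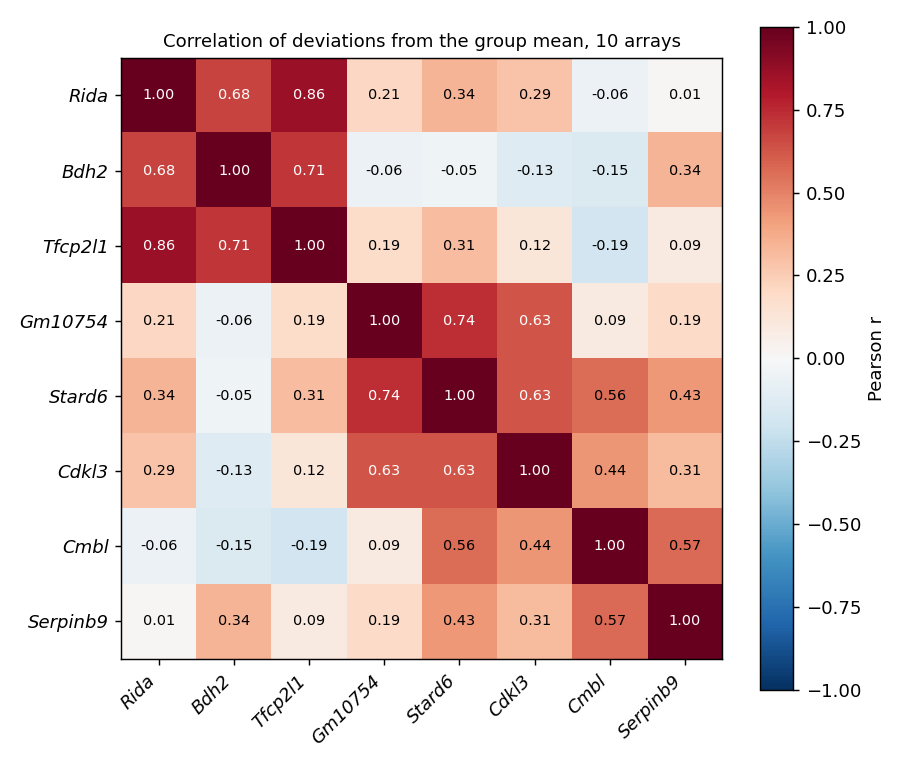
Pearson r of the deviations from the group mean over 10 arrays for each pair of the 8 genes, with colour from -1 (blue) to 1 (red). Rida, Bdh2 and Tfcp2l1 form one block (0.68 to 0.86) and Gm10754, Stard6 and Cdkl3 another (0.63 to 0.74). Stard6 is shown by its brighter probe set.

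Among the 15162 genes above the floor, the gene most like Rida was Ptgr2, a prostaglandin reductase on chromosome 12, with r = 0.99 over 10 arrays. Ptgr2 had control values of 8.39, 8.18, 8.44, 8.23 and 8.42 and Dp1Yey values of 8.58, 8.81, 8.82, 8.62 and 8.89, with the same order of mice in each group as Rida. Its groups did not overlap either, and it was called higher (log2 difference 0.41, 95% CI 0.26 to 0.56; limma adjusted p = 0.0194). The next gene was Ifit2 (r = 0.92), an interferon-induced gene that was not called (0.21, limma adjusted p = 0.103).

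Bdh2 was most like Ucma (r = 0.94), a secreted matrix protein known from cartilage, and Lcat (0.93), the enzyme that esterifies cholesterol in lipoproteins. Both were called higher, Ucma by 0.99 (limma adjusted p = 0.0430) and Lcat by 0.56. Tfcp2l1 was most like Thrsp (0.95), a regulator of lipid synthesis that was called higher by 0.41 (limma adjusted p = 0.0459), and Cib1 (0.93), a calcium-binding protein that was not called. Serpinb9 was most like Casp8 (0.92), the initiator caspase of death receptors, which was not called (0.18, limma adjusted p = 0.0881), and Tlr3 (0.91), the receptor for double-stranded RNA, which was called higher by 0.23 (limma adjusted p = 0.0302).

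The genes differed in how many others were like them. Cdkl3 had 63 genes with r above 0.9 and Stard6 had 59, against 19 for Gm10754, 9 for Tfcp2l1, 7 for Rida, 6 for Serpinb9, 4 for Cmbl and 3 for Bdh2. Stard6 was most like Fcer1g (0.97), an Fc receptor chain of microglia, and Cdkl3 was most like Ppp2r5b (0.97), a phosphatase subunit, and Ermn (0.96), a protein of oligodendrocytes. Of these, Fcer1g was called higher (0.36, limma adjusted p = 0.0166), and Ppp2r5b (0.13) and Ermn (-0.01) were not called. For Stard6 these values are from its brighter probe set, whose number lies among those of chromosome 10. Its deviations also followed the array interquartile range at r = 0.94. With the summed level of 6 microglial markers Stard6 had r = 0.20 over 10 arrays. Gm10754 was most like Apool (0.98; log2 difference 0.29, limma adjusted p = 0.0544) and Cmbl was most like Atp5mpl (0.97; 0.02, limma adjusted p = 0.687). A high r among 15162 genes over 10 arrays is a description and carries no test.

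Genes that start within 1 Mb of each of the 8 genes were read from the same fit, since they were not used in the choice. Of 90 such neighbours, 47 had the higher mean in Dp1Yey and 1 was called (1.11%, against 0.5% of all genes outside the interval). Their median log2 difference was 0.0055, against -0.015 over all genes outside the interval, and they ran from -0.18 to 0.40. None of the 12 neighbours of Rida passed even an unadjusted p of 0.05 in limma, and 0 were called. The same held for the 5 neighbours of Gm10754. The neighbours of Cmbl (8), Bdh2 (9), Cdkl3 (25), Tfcp2l1 (9) and Serpinb9 (15) also gave 0 calls at the adjusted threshold, with 1, 3, 4, 4 and 3 at an unadjusted p under 0.05. Over all 90 neighbours 17 (18.9%) passed the unadjusted p, against 19.3% of all genes outside the interval, so these counts were at the background.

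The called neighbour was Rab27b, a small GTPase of vesicle release, which starts 493 kb before Stard6 and is one of its 7 neighbours. It had control values of 8.36, 8.29, 8.54, 8.51 and 8.49 and Dp1Yey values of 8.71, 8.62, 8.66, 8.67 and 8.72, without overlap. Its log2 difference was 0.24 (95% CI 0.14 to 0.35; limma adjusted p = 0.0450), and with 1 array left out the call was kept in 2 of 10 fits, those without control replicate 3 or control replicate 5 (limma adjusted p up to 0.116 in the others). Near Serpinb9 the widest difference was that of Serpinb1a, a related elastase inhibitor, at 0.40 (95% CI 0.16 to 0.65), which did not pass the adjustment (limma adjusted p = 0.110). The Serpinb1a groups overlapped, with controls from 6.73 to 7.27 and Dp1Yey mice from 7.22 to 7.73.

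**Figure D4:**
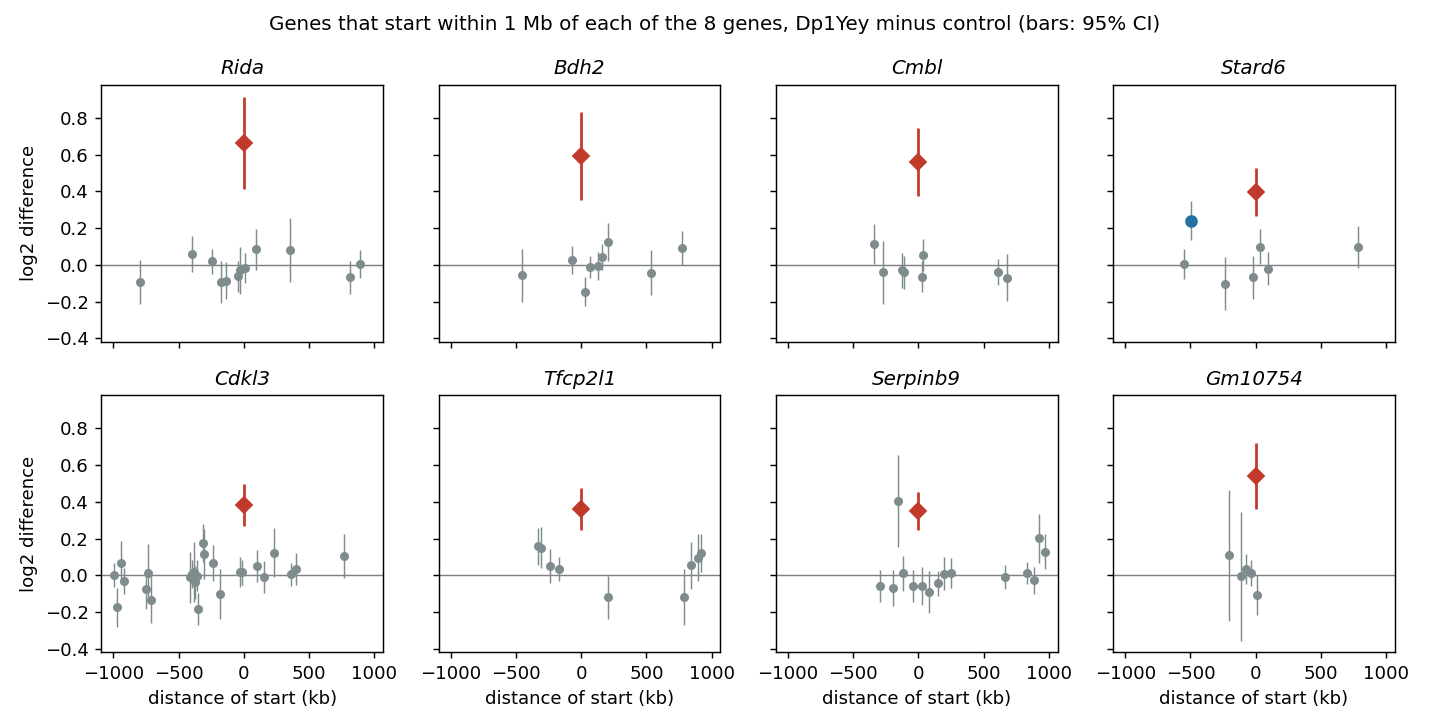
Log2 difference, Dp1Yey minus control, of each of the 8 genes (red diamonds) and of the genes that start within 1 Mb (grey dots), against the distance between start sites in kb, with 95% CIs. The 90 neighbours lie between -0.18 and 0.40, and the blue dot, Rab27b near Stard6, is the called one.

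Genes related to the 8 by role, counted together with 4 genes that differ between C57BL/6 substrains, gave 3 calls among 130 genes outside the interval (2.31%). Of all genes outside the interval 0.5% were called. The lists were chosen with earlier results of these data known, so these shares are a description and not a test of enrichment. The calls were Cbs, Irgm1 and Trim30a, and the lists without these genes held 0 calls. For Rida, 16 pyridoxal phosphate enzymes and vitamin B6 genes were measured, 9 of them higher, with a median log2 difference of 0.0075. The called one of these was Cbs, the enzyme that makes cystathionine from homocysteine and serine, and it was lower. Cbs had control values of 8.72, 8.81, 8.63, 8.59 and 8.65 and Dp1Yey values of 8.29, 8.17, 8.18, 8.21 and 8.16, with no overlap, a log2 difference of -0.47 (95% CI -0.57 to -0.38) and a limma adjusted p of 0.000209, and it was called in 10 of 10 fits with 1 array left out. Human CBS lies on chromosome 21, but mouse Cbs is outside the interval that Dp1Yey duplicates.

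At an unadjusted p under 0.05, 8.45% of all genes outside the interval were higher and 10.8% lower, and the unadjusted counts of the lists are to be read against these shares. For Bdh2, 0 of 7 genes of ketone body and butyrate metabolism and 0 of 13 of iron handling were called by limma. Their medians were 0.08 and 0.03. At an unadjusted p under 0.05, 1 of the former was higher, and of the latter 1 was higher and 1 lower. Among the latter, Tfrc, the transferrin receptor, differed by 0.30 (limma adjusted p = 0.134), Slc22a17, a lipocalin receptor, by -0.12 (limma adjusted p = 0.179) and Lcn2, the lipocalin that binds siderophores, by -1.19 with a wide interval of -2.69 to 0.31 (limma adjusted p = 0.347). The esterases and related hydrolases of Cmbl gave 0 of 14 calls (5 at an unadjusted p under 0.05, 3 higher and 2 lower). Among them Ephx1, an epoxide hydrolase, differed by 0.41 (limma adjusted p = 0.126). The START domain proteins of Stard6 gave 0 of 14 (6 unadjusted, 2 higher and 4 lower). The CDKL and related kinases of Cdkl3 gave 0 of 6 (1 unadjusted, lower). No relative of Tfcp2l1 was called, neither of 5 CP2 and grainyhead factors (0 unadjusted) nor of 10 genes of the naive pluripotency network (3 unadjusted, all lower), whose median was -0.10.

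For Serpinb9, 0 of 23 other clade B serpins were called, 12 were higher (2 of them at an unadjusted p under 0.05), and their median was 0.0026. The interferon response genes differed more. Of 18 measured, 14 were higher, 11 at an unadjusted p under 0.05 and 2 after adjustment, and the median was 0.24. Of the 19795 genes outside the interval, 1672 (8.45%) were higher at that unadjusted p. The called ones were Irgm1, an interferon-induced GTPase (0.40, limma adjusted p = 0.0166), and Trim30a, an interferon-induced ubiquitin ligase (0.27, limma adjusted p = 0.0335). With 1 array left out, Irgm1 was called in 7 of 10 fits, not without control replicate 4 or Dp1Yey replicate 1 or 3. Trim30a was called in 3 of 10, those without control replicate 2, control replicate 5 or Dp1Yey replicate 1. The mean of the log2 values of the 18 genes ran from 6.83 to 6.97 in control and from 7.01 to 7.20 in Dp1Yey mice, without overlap. The log2 of their summed level, of which B2m alone made up 57.1% to 67.0%, ran from 12.15 to 12.50 and from 12.55 to 12.71, and without B2m from 10.76 to 10.96 and from 10.97 to 11.24, also without overlap; the mean and the sum without B2m were chosen after seeing the data. Over 10 arrays the deviations of Serpinb9 had r = -0.28 with the mean of the list and -0.37 with the sum without B2m. With the full sum, mostly B2m, r was 0.12, the only positive value of these. In the same order Rida had 0.60, 0.47 and 0.56, and Cdkl3, at -0.04, -0.14 and 0.62, followed only the full sum.

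**Figure D5:**
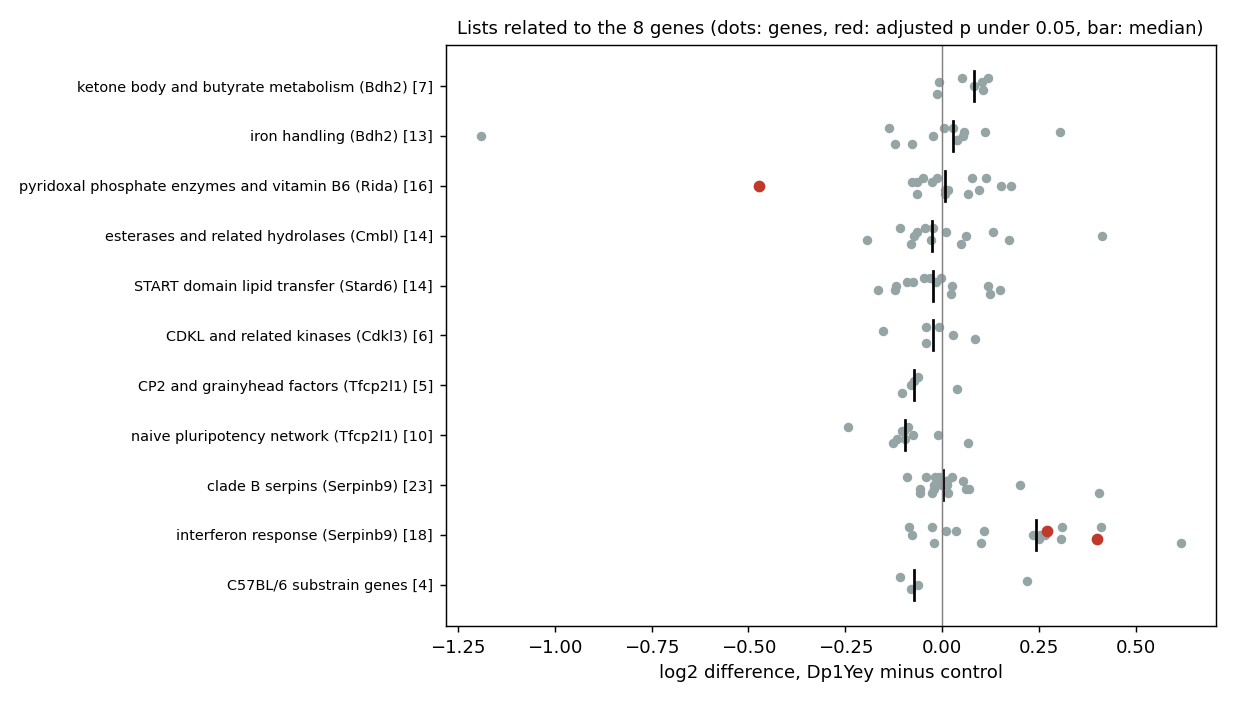
Log2 difference, Dp1Yey minus control, of the genes of each list related to the 8 genes (1 dot per gene, number measured in square brackets, black bar for the median); red dots passed a limma adjusted p of 0.05. The 3 red dots are Cbs at -0.47 and Irgm1 and Trim30a at 0.40 and 0.27, and the interferon list has the median farthest from 0.

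Markers of cell types were read beside these genes, and their part in the results was not tested. The defining markers of hippocampal neurons (8 of 8), astrocytes (6 of 6), microglia (6 of 6) and oligodendrocytes (5 of 5) were above the floor, and the summed levels of all 11 marker lists overlapped between the groups. The 5 choroid plexus markers were all lower in Dp1Yey at an unadjusted p under 0.05, 0 of them after adjustment, with a median log2 difference of -0.58 and log2 sums of 10.80 to 13.35 in control and 10.10 to 12.16 in Dp1Yey mice. That sum followed Serpinb9 at r = 0.57, Gm10754 at -0.44 and the other 6 genes at -0.11 to 0.26 over 10 arrays. Of 9 cytotoxic lymphocyte markers, the cells in which Serpinb9 is best known, 2 were above the floor and 0 were higher in Dp1Yey mice, with log2 sums of 8.34 to 8.53 in control and 8.32 to 8.38 in Dp1Yey mice.

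Between a marker sum and the 8 genes, the r farthest below 0 over 10 arrays were those of Gm10754 with meninges (-0.74) and of Stard6 (-0.73), Serpinb9 (-0.71) and Cdkl3 (-0.69) with cytotoxic lymphocytes, whose markers were mostly under the floor. Cdkl3 also had -0.61 with astrocytes. On the positive side the oligodendrocyte sum followed Cdkl3 at r = 0.70 and Tfcp2l1 at 0.61 over 10 arrays, and the microglial sum followed Cdkl3 and Tfcp2l1 at 0.61 and Rida at 0.55. Both sums overlapped between the groups, from 13.39 to 13.68 in control and 13.43 to 13.75 in Dp1Yey mice for oligodendrocytes and from 11.14 to 11.32 and 11.25 to 11.33 for microglia. Similar r were found for Cdkl3 with the thalamus and habenula sum (0.61) and the ependymal sum (0.55). Of 4 genes that differ between C57BL/6 substrains (Nnt, Wdfy1, Ide and Entpd4), 0 were called by limma, with 1 lower at an unadjusted p under 0.05. Their log2 differences ran from -0.11 to 0.22.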

How the data were processed

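Total RNA of 10 mouse hippocampi was hybridised to Affymetrix Mouse Gene 1.0 ST arrays. The authors deposited log2 values made by RMA (background correction, quantile normalisation, 1 value per probe set), and the processing notes name RMA, limma and mm10. The set of arrays that entered 1 normalisation is not stated. The labels and the study's text differ on the amount of input RNA. Of 35556 probe sets, 21789 carried 1 gene symbol, 1621 several and 12146 none in the platform annotation. The probe set of highest mean stood for each of 19938 genes, and 19855 Entrez identifiers matched RefSeq GRCm38.p6.

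Groups were compared with limma 3.58.1 (lmFit, eBayes) in R 4.3.3, two-sided, Benjamini-Hochberg over all genes. Arrays give no read depth, and 5 mice per group limit the precision. The code was tested on simulated data. The genes, lists and tests were chosen with earlier results of these data known. The text names the 8 genes, the gene or 2 genes most like each and, per related list, up to 3 genes, not always those of smallest p. Atxn7l1, Scnn1a and St6galnac3, the next most like Stard6, Cmbl and Gm10754, were not called. A member of a list that was not called is given by value only. Alternatives were quantile normalisation, median centring, a floor filter, means of probe sets, an intensity trend with robust prior, the replicate number as a block, array weights, the array interquartile range as covariate, leaving out arrays, probe-set tests, other windows and a rewritten rank statistic. Centring on the median of all probe sets was chosen after seeing the data. Of the replicate numbers, same-numbered mice did not deviate together, so they were not treated as pairs.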

Additional observations from a re-analysis of the deposited data

Results flagged for a closer look

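In Serpinb9, Dp1Yey replicate 1 had a log2 value of 7.05, and the gap to the next mouse was 0.763 of the range of its group, above the 95% critical value of Dixon's test for 5 samples. It was the 1 such sample among 18 groups of 5 examined over the 9 probe sets, and chance gives about 1 in 20. Without this mouse Serpinb9 kept its call.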

How the results depend on the processing

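Calls outside the interval numbered 99. They were 174 with array weights, 45 with the replicate block (32 shared), 11 with the array interquartile range as covariate (7 shared), 244 with centring on the median of all probe sets (94.3% of them higher, against 78.8%; chosen after seeing the data), 621 with the rewritten rank statistic, and 22 to 174 with 1 array left out. The 8 genes were all called under quantile normalisation, median centring (either form), the floor filter, means of probe sets, the intensity trend, array weights, probe-set tests and the rank statistic. They numbered 7 with the replicate block (Gm10754 lost, limma adjusted p = 0.0503), 1 with the range covariate, 6 without control replicates 1 and 2, and 6 to 8 with 1 array left out. Neighbours called (1) became 0 with median centring, the replicate block, the range covariate and without control replicates 1 and 2 together, 2 with centring on all probe sets, and 0 to 2 with 1 array left out. Related genes called (3) became 5 with quantile normalisation and with the floor filter, 1 with the covariate, 9 with centring on all probe sets, and 1 to 4 with 1 array left out. Deviations of same-numbered mice correlated at 0.06, 0.01, 0.04, 0.22 and -0.33, and replicate 4 alone correlated best with its own number, so the numbers show no pairing. The cause of these changes was not tested. With 5 arrays per group, differences of dim genes such as Gm10754 and Stard6 rest on means over the 10 arrays that are 0.49 and 0.70 above background. Their control means, 5.67 and 5.95 against the floor of 5.45, were nearer to it.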
